A study of Mus musculus with 6 samples.

Results

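The clustered protocadherin genes of the mouse were examined by reduced representation bisulfite sequencing (RRBS) of CD8+ T cells. They lie on chromosome 18 as 3 neighbouring families, Pcdha, Pcdhb and Pcdhg, and were taken as every CpG between positions 36930000 and 37850000 of the mm10 build with at least 5 reads in all 6 libraries. This gave 790 CpGs out of 1192344 CpGs of the genome that met the same read minimum. Of the 790 CpGs, 447 lay in variable exons (the exon that holds the start codon of each protocadherin), 37 in promoters (the 1000 bases before the transcript start), 11 in constant exons, 20 in the body or promoter of Taf7, and 275 in the remaining sequence. The cells came from lymph nodes of 13-week-old C57BL/6N mice that were WT, carried a human STAT5B transgene (hSTAT5B), or carried the same transgene with the N642H change (hSTAT5BN642H). Both transgenes were driven by the Vav1 promoter, which is active in blood-forming cells, and each transgene was represented by 1 line. The mice with hSTAT5BN642H had T cell disease, so that transgene and disease cannot be told apart. Each genotype had 2 libraries, each from 1 mouse, and CD8+ cells were enriched with a magnetic kit rather than sorted.

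Clustered protocadherins are adhesion proteins of the cell surface that give single neurons distinct identities. Each variable exon has its own promoter and encodes the extracellular part of 1 protein; in Pcdha and Pcdhg it is spliced to constant exons that encode a shared cytoplasmic end, whereas Pcdhb genes are single exons. In neurons the promoter is chosen largely at random with the help of CTCF and cohesin, and DNA methylation is found at the promoters that are not chosen. The C-type genes at the ends of Pcdha and Pcdhg are used more uniformly by neurons. RNA was not analysed here.

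The libraries held 43291086 to 67007186 reads on CpGs, and the median CpG of the protocadherin interval had 20 to 34.5 reads. RRBS reaches only CpGs close to MspI sites, and 447 of the 5663 CpGs of the variable exons, or 7.89%, were measured. At least 1 CpG was measured in 46 of the 58 variable exons and in 14 of the 58 promoters. At least 3 CpGs, the minimum for a level of a single exon or promoter, were available for 43 exons and 5 promoters. These comprised 7 exons of Pcdha, 14 exons and 2 promoters of Pcdhb, and all 22 exons and 3 promoters of Pcdhg. No CpG was measured in 6 Pcdha exons and 6 Pcdhb exons. Protocadherins resemble each other, and 242 of the 790 CpGs were read from a converted 50-base sequence that occurs at more than 1 MspI end of the genome. Of these, 171 were in repeats masked in the reference. The other 548 CpGs are called CpGs with a unique read, but 91 of them had a read within 2 mismatches of another read of the interval.

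None of the marker genes of CD8+ T cells, CD4+ T cells and myeloid cells had 3 measured CpGs in its start-codon exon or promoter, so that the CpGs within 5 kb of the start were read instead, a window chosen after this was seen. Over the 39 CpGs near 5 of the 7 CD8+ T cell markers, methylation was 34.4% and 20.7% in the WT libraries, 16.0% and 17.5% in hSTAT5B, and 13% and 8.78% in hSTAT5BN642H. Near Cd8a, which encodes the CD8 coreceptor itself, WT replicate 1 had 58.7%, against 17.7% in WT replicate 2, 14.0% and 26.7% in hSTAT5B, and 12.9% and 5.49% in hSTAT5BN642H. Near Cd3d (2 CpGs) WT replicate 1 had 46.5%, against 0% to 11.8% in the other libraries. Near Cd8b1 both WT libraries had 37.8%, hSTAT5B 18.8% and 17.5%, and hSTAT5BN642H 8.51% and 11.8%. Near Thy1 the levels were 29.1% and 24.8% in WT, 22.7% and 20.2% in hSTAT5B, and 17.9% and 12.4% in hSTAT5BN642H. Near Lck all libraries lay between 2.11% and 5.10%. The libraries ranged from 76.0% to 87.3% over the 2 of 3 myeloid markers with CpGs, and from 9.26% to 13.8% at Zbtb7b, a CD4+ T cell marker. WT replicate 1 thus stood apart at Cd8a and Cd3d, but not at Cd8b1 or Lck. The CD8+ T cell markers together differed in level between the genotypes, though Lck did not. The part of these differences in the results below was not tested, and results that use WT are also given without WT replicate 1 where it matters.

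Methylation of the variable exons was intermediate in every library, and it differed sharply between classes of sequence. The mean over the 447 exon CpGs was 58.7% ± 1.76 (SD, n = 6 libraries), against 36.7% ± 1.27 for the 37 promoter CpGs. The promoters were lower than the exons in all 6 libraries, with a mean difference of -21.9 percentage points (exact permutation test over libraries, 2-sided, p = 0.03125, which is the lowest value 6 libraries can give). By cluster, promoters had 29.4% (25 CpGs) against 56.3% for exons in Pcdhg, and 46.9% (9 CpGs) against 71.9% in Pcdhb. In Pcdha the 3 promoter CpGs went the other way in all 6 libraries, with 67.5% against 48.4%. The remaining sequence between the exons, in which 196 of the 275 CpGs were in repeats, had 87.7% ± 1.23. The 20 CpGs of Taf7, a gene between Pcdhb and Pcdhg that encodes a subunit of the general transcription factor TFIID, had 1.67% ± 0.628. Taf7 levels lay between 0.958% and 2.47% in all 6 libraries, and the 5 CpGs of its promoter had 2.77% to 5.62%. No CpG of Slc25a2, a mitochondrial carrier gene in the interval, or of Diaph1, which reaches into its end, was measured.

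**Figure D1:**
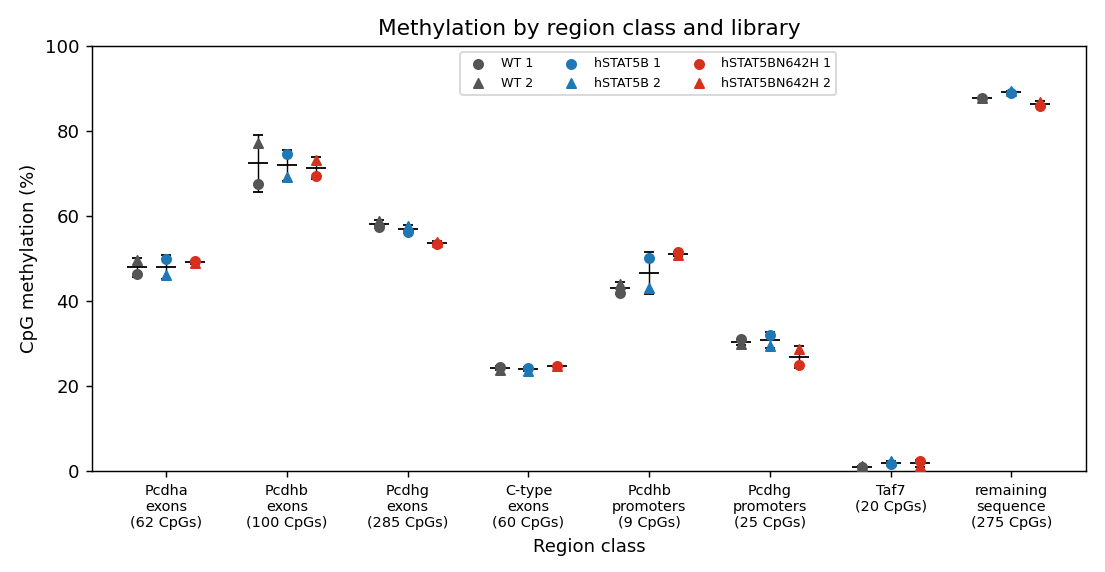
CpG methylation (%, vertical axis) of 8 region classes (horizontal axis, with the number of CpGs), with 1 point per library (circles, replicate 1; triangles, replicate 2) and the mean ± SD of each genotype in black. Taf7 sits near 0, C-type exons near 24.3%, and the remaining sequence near 87.7%, and the genotypes differ by less than these classes do.

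The level of variable exons was not that of start-codon exons in general. Over 101944 CpGs in the start-codon exons of all other protein-coding genes, mean methylation was 12.4%. The variable exons were 46.3 ± 1.79 percentage points higher (SD over 6 libraries), with a range of 44.0 to 49.2 (exact permutation test, p = 0.03125). The 2 sets were not matched for exon length or for distance from the transcript start. Of the variable exon CpGs, 237 lay 1000 or more bases from the start, and the 133 in the first 500 bases had 38.6%. The part of position in this difference was not tested. In a single library, 55.4% of the CpGs of variable exons lay between 20% and 80%, averaged over the libraries, against 6.66% for the other start-codon exons. This share was higher in the protocadherins in all 6 libraries, by 44.4 to 52.1 percentage points (exact permutation test, p = 0.03125). Of the 43 exons, 3 were below 20%, 31 between 20% and 80%, and 9 above 80%, whereas of 7433 other start-codon exons, 80.3% were below 20% and 6.42% in between. The counts per CpG do not tell whether cells or alleles differ where the level is in between.

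Among the clusters, Pcdhb exons had the highest mean methylation and Pcdha exons the lowest. The mean was 71.9% ± 3.66 over 100 CpGs of Pcdhb, 56.3% ± 2.11 over 285 CpGs of Pcdhg, and 48.4% ± 1.72 over 62 CpGs of Pcdha (SD, n = 6 libraries). Pcdha differed from Pcdhb by -23.5 ± 2.65 percentage points and was lower in all 6 libraries, and Pcdhb was 15.6 ± 3.80 percentage points above Pcdhg in all 6 libraries. Pcdha differed from Pcdhg by -7.90 percentage points (range -11.6 to -4.11). Each of the 3 pairs had an exact permutation p of 0.03125, also after Benjamini-Hochberg adjustment. The order of Pcdha and Pcdhg depended on which exons were counted: with 1 mean per gene in place of 1 per CpG, the difference was -2.48 (exact permutation test, p = 0.188). Without the C-type genes, an alternative chosen after seeing the data, Pcdha had 68.7% over 32 CpGs and Pcdhg 60.3% over 255 CpGs, so that Pcdha was 8.38 ± 2.47 percentage points higher (exact permutation test, p = 0.03125). The CpGs of Pcdha1 to Pcdha4 lay at medians of 1534 to 2338 bases from the transcript start, and those of Pcdha8 at 546. Those of the Pcdhg exons without C-type genes lay at medians of 53 to 1940 bases. The part of position in this difference was not tested. Without the C-type genes Pcdha remained below Pcdhb, with a difference of -3.15 percentage points. Within Pcdhg, exons of the B subfamily (58.0%, 96 CpGs) were lower than those of the A subfamily (61.7%, 159 CpGs) in all 6 libraries, with a difference of -3.76 ± 1.36 percentage points (exact permutation test, p = 0.03125). A unique read was available for 64 of the 96 and 152 of the 159 CpGs. The part of shared reads and of position in this difference was not tested.

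Single exons spread much more widely than libraries did. The levels of the 43 exons ran from 1.55% to 93.2% with a median of 63.5% and an SD between exons of 20.7 percentage points, whereas the median SD of 1 exon over the 6 libraries was 4.59. In Pcdha, the exons at the start of the cluster were high: Pcdha1 (5 CpGs) had a mean of 86.5% over the 6 libraries and Pcdha2 (3 CpGs) 82.0%. Pcdha8 was low, with 31.3% and 29.8% in WT, 23.2% and 15.8% in hSTAT5B, and 24.9% and 32.3% in hSTAT5BN642H. The measured CpGs of Pcdha1 and Pcdha2 lay at medians of 2165 and 2338 bases from the transcript start, those of Pcdha8 at 546. In Pcdhb no exon was below 20%, and the range was 53.2% at Pcdhb1, which opens the cluster, and 53.7% at Pcdhb13 up to 87.2% at Pcdhb15 and 89.3% at Pcdhb9. In Pcdhg, 19 of the 22 exons lay between 20% and 80%. The highest were Pcdhga7, with 94.5% and 93.4% in WT and 89.0% to 96.6% in the other libraries, and Pcdhga3 with 76.1% to 81.0%. Apart from the C-type genes, the lowest Pcdhg exon was Pcdhgb4 with 40.1%. Neighbouring exons could differ by a wide margin: Pcdhga7 was followed by Pcdhgb4. The measured CpGs of these 2 exons lay at medians of 1568 and 298 bases from the transcript start. The part of position within the exon in such differences was not tested. The order of exons closest in level, such as Pcdhb1 and Pcdhb13, is not resolved by the spread of the libraries.

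**Figure D2:**
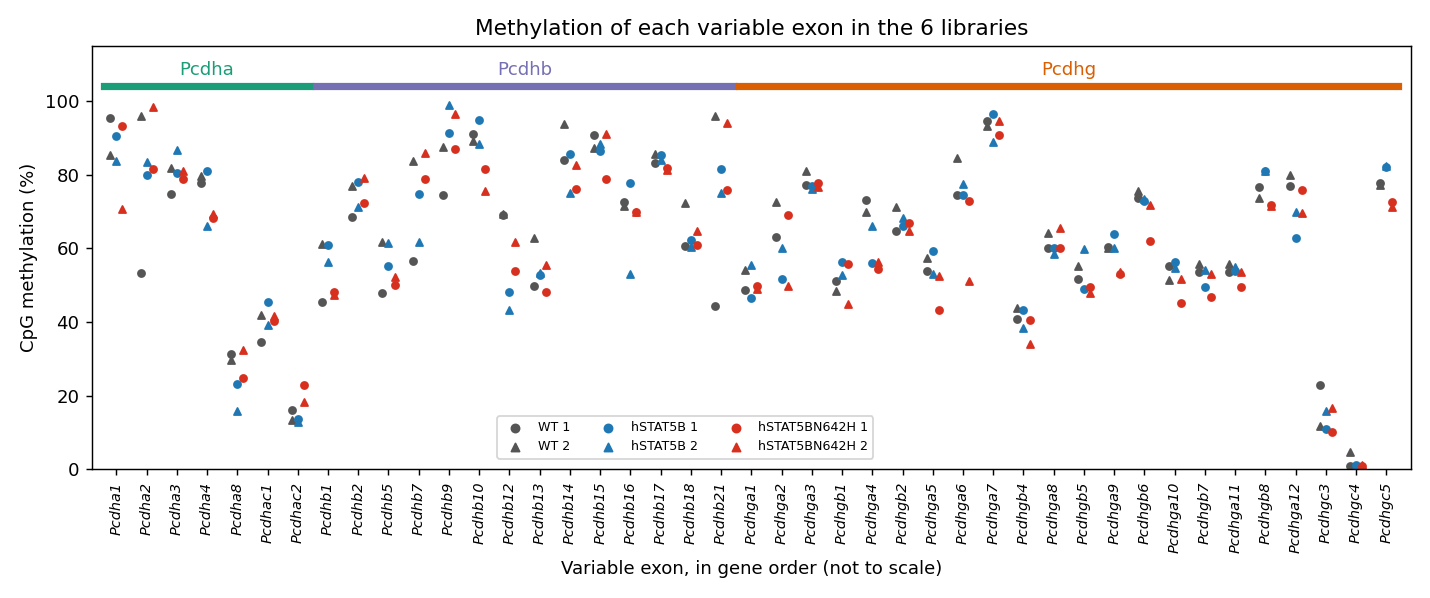
CpG methylation (%, vertical axis) of the 43 variable exons with at least 3 CpGs, in gene order but not to scale, with 1 point per library (grey, WT; blue, hSTAT5B; red, hSTAT5BN642H; circles, replicate 1; triangles, replicate 2). Most exons lie between 40% and 90%, the C-type exons Pcdhac2, Pcdhgc3 and Pcdhgc4 lie below 25%, and the largest gap between libraries of 1 genotype is in WT at Pcdhb21 (44.4% and 95.8%).

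The C-type genes held the least methylated exons, but they did not form 1 group. Their 60 exon CpGs averaged 24.3% ± 0.444 (SD, n = 6), which was -36.0 ± 2.58 percentage points from the other Pcdhg exons and -44.4 ± 2.38 from the other Pcdha exons, lower in all 6 libraries in both cases (exact permutation tests, p = 0.03125). The CpGs of Pcdhac1 and Pcdhac2 lay at medians of 476 and 958 bases from the transcript start. Those of Pcdha1 to Pcdha4 lay at medians of 1534 to 2338 bases. The part of position in these differences was not tested. Pcdhgc4, whose protein supports the survival of neurons, was almost unmethylated over 12 CpGs of its exon (chr18:37815079-37817983), with 0.8% to 1.2% in 5 libraries and 4.6% in WT replicate 2. Pcdhgc3 had 10.1% to 22.9% over 12 CpGs of its exon and 5.63% to 11.9% over 7 CpGs of its promoter. Pcdhac2, which serotonergic neurons need for the spacing of their axons, had 12.9% to 22.9% over 17 CpGs. Pcdhac1 was intermediate, at 34.7% to 45.5% over 13 CpGs. Pcdhgc5 stood apart with 71.4% to 82.4%, but its 6 CpGs lay far into the exon, at a median of 2028 bases from the start, against 397 bases for the CpGs of Pcdhgc4 and 1297 bases for those of Pcdhgc3.

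Methylation was lowest around the transcript start and higher further into the exons. Over the first 500 bases of the variable exons (133 CpGs) it was 38.6%, and from base 1000 onwards (237 CpGs) it was 70.4%. The difference was -31.9 percentage points, with a range over libraries of -34.0 to -30.4 (exact permutation test, 6 libraries, p = 0.03125). It was -43.8 in Pcdha (13 and 34 CpGs), -34.6 in Pcdhb (23 and 70 CpGs) and -27.7 in Pcdhg (97 and 133 CpGs). Without the C-type genes it was -29.8. The same direction was seen within genes: of 22 genes with CpGs in both stretches, 20 were lower near the start, with a median difference of -22.4 percentage points. In Pcdhg, methylation was 21.8% in the last 250 bases of the promoters (21 CpGs of 6 genes), 36.2% in the first 250 bases of the exons, 41.8% in the next 250 and 73.2% between 1000 and 1500 bases. In Pcdhb it stayed between 44.7% and 46.9% up to base 500 and was 84.5% between 500 and 1000 bases. In Pcdha it was 13.8% in the first 250 bases, but those 5 CpGs came from 1 gene. The exons measured differ from bin to bin, so that part of each curve is a change of genes.

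**Figure D3:**
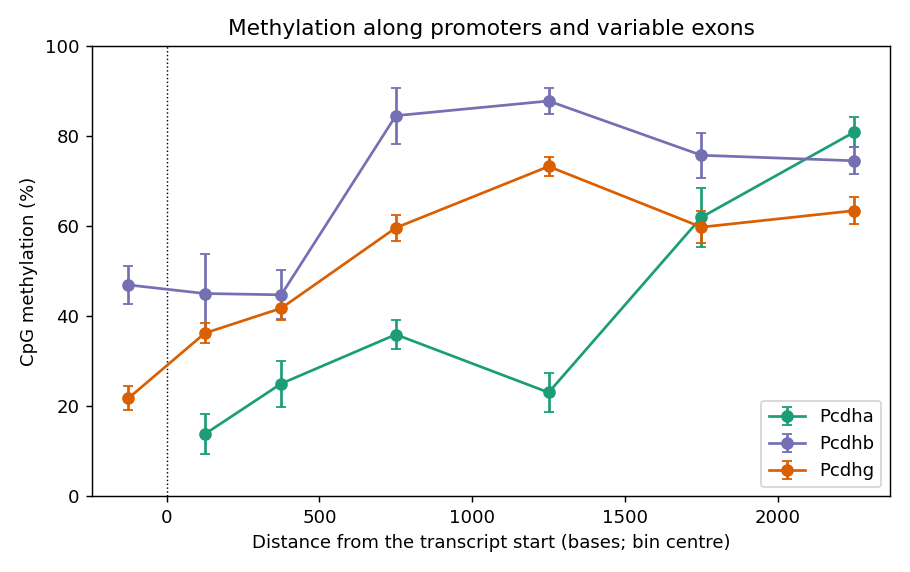
CpG methylation (%, vertical axis) against distance from the transcript start (bases, horizontal axis, bin centres; the dotted line marks the start) for Pcdha, Pcdhb and Pcdhg, over bins with at least 5 CpGs; points are means over the 6 libraries and bars are their SD. Pcdhg runs from 21.8% just before the start to 73.2% between 1000 and 1500 bases, and Pcdha stays below 40% up to 1500 bases of the exons. The Pcdha bins at 0 to 250 (5 CpGs) and 1000 to 1500 bases (8 CpGs) each come from 1 gene. Its promoter bins, with 1 and 2 CpGs, are not drawn.

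Exons whose measured CpGs lay further from the start tended to have higher levels. Across the 43 exons, which share libraries and are not replicates, Spearman's rho between level and the median distance of the measured CpGs from the start was 0.61 (Pearson's r = 0.521). It was 0.821 over the 7 Pcdha exons, 0.424 over the 14 Pcdhb exons and 0.412 over the 22 Pcdhg exons. With the number of CpGs per 100 bases of exon, rho was -0.328 over all exons but -0.301 within Pcdhg, -0.0549 within Pcdhb and 0.214 within Pcdha. The clusters differed in this density. A median of 4.68 CpGs per 100 bases was found in Pcdha exons, 3.92 in Pcdhg and 2.07 in Pcdhb, and the promoters had medians of 1 to 1.1. The constant exons, which all proteins of a cluster share, had 59.8% ± 6.80 over 8 CpGs in Pcdha and 3.18% ± 2.63 over 3 CpGs in Pcdhg (SD, n = 6 libraries).

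The next question was whether hSTAT5B or hSTAT5BN642H changed this methylation. With 2 libraries against 2, an exact permutation test cannot go below 0.333, so that no difference between 2 genotypes could pass 0.05. Over all 790 CpGs, methylation was 66.7% ± 1.44 in WT, 66.9% ± 0.39 in hSTAT5B and 64.7% ± 0.795 in hSTAT5BN642H. The difference of hSTAT5BN642H from WT was -2.00 percentage points (exact permutation test, p = 0.333). Most of it lay in Pcdhg. The Pcdhg exons had 57.4% and 58.8% in the WT libraries, 56.3% and 57.7% in hSTAT5B, and 53.5% and 54.0% in hSTAT5BN642H. Both hSTAT5BN642H libraries were below the other 4 libraries, whereas WT and hSTAT5B overlapped. The difference was -4.34 from WT (exact permutation test, p = 0.333), -3.24 from hSTAT5B (p = 0.333, exact) and -3.79 from the other 4 libraries together (p = 0.0667 by exact permutation, the lowest value that a comparison of 2 with 4 can reach). It was -5.00 without WT replicate 1 and -4.99 over the 246 CpGs with a unique read. It was -4.68 in the A subfamily and -4.10 in the B subfamily. Of the C-type exons of Pcdhg, Pcdhgc3 differed by -3.99 percentage points, Pcdhgc4 by -1.64 and Pcdhgc5 by -5.40.

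Along the Pcdhg exons, the mean of hSTAT5BN642H was below that of WT in each stretch up to 2500 bases, but the libraries overlapped at both ends. The difference of hSTAT5BN642H from WT was -2.12 percentage points in the first 250 bases, -4.12 between 250 and 500, -4.93 between 500 and 1000, -4.12 between 1000 and 1500, -6.76 between 1500 and 2000, and -1.29 over the 11 CpGs between 2000 and 2500. In the first 250 bases WT replicate 1 (34.3%) was below both hSTAT5BN642H libraries (35.4% each), and between 2000 and 2500 hSTAT5BN642H replicate 1 (63.5%) was above both WT libraries (62.3% and 62.6%). Pcdhg promoters differed by -3.59 (25 CpGs), with 31.0% and 29.9% in WT and 25.0% and 28.8% in hSTAT5BN642H. Genome-wide, CpGs outside the interval had 62.3% and 62.7% in WT, 62.7% and 62.6% in hSTAT5B, and 61.9% and 62.1% in hSTAT5BN642H. Both hSTAT5BN642H libraries were thus below the other 4 here too, by a smaller amount. The difference was -0.584 percentage points (exact permutation test, p = 0.0667, the same lowest value as for the Pcdhg exons). Relative to the CpGs of the genome with mean levels of 20% to 80%, the Pcdhg exons in hSTAT5BN642H remained -2.92 percentage points from the other 4 libraries (exact permutation test, p = 0.0667), a comparison added after seeing the data.

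Pcdha and Pcdhb exons gave no such separation. Pcdha exons had 46.3% and 49.6% in WT, 50.0% and 46.1% in hSTAT5B, and 49.4% and 48.9% in hSTAT5BN642H. Pcdhb exons had 67.6% and 77.1% in WT, 74.5% and 69.3% in hSTAT5B, and 69.4% and 73.2% in hSTAT5BN642H, so that the WT libraries alone spanned all others. Pcdhb promoters (9 CpGs) had 42.0% and 44.0% in WT, 50.1% and 43.2% in hSTAT5B, and 51.5% and 50.8% in hSTAT5BN642H. Both hSTAT5BN642H libraries were above the other 4, the nearest being hSTAT5B replicate 1, by a mean of 6.31 percentage points (exact permutation test, p = 0.133). Whether the difference of Pcdhg was larger than that of the other clusters was tested within libraries. Pcdhg minus Pcdha in hSTAT5BN642H differed by -4.94 percentage points from that in the other 4 libraries (exact permutation test, p = 0.133), and Pcdhg minus Pcdhb by -2.94 (p = 0.4, exact permutation test), so that the clusters were not shown to differ in their response.

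Exon by exon, hSTAT5BN642H was more often below than above WT, mainly in Pcdhg. Of the 48 exons and promoters, 37 had a lower mean in hSTAT5BN642H than in WT, against 45.7% of all 16033 start-codon exons and promoters measured. The median difference was -3.69 percentage points, beside 0.129 over all 16033. By cluster, 23 of 25 were lower in Pcdhg, 11 of 16 in Pcdhb and 3 of 7 in Pcdha. At least 5 percentage points lower were 15 of the 48 (3.56% of all), and at least 5 higher were 6 (5.3% of all). Protocadherins sit at levels where such differences are common: among the 1322 exons and promoters of the genome with means of 20% to 80%, 17.9% were at least 5 points lower and 24.4% at least 5 points higher. The genotypes did not overlap, with hSTAT5BN642H lower, at 18 of the 48 (14.5% of all, and 16.9% of those at 20% to 80%), and with hSTAT5BN642H higher at 2 (19.8% of all, and 24.1% of those at 20% to 80%). The exons share libraries and neighbours and are not independent. The 2 WT libraries differed from each other by a median of 3.91 percentage points, and by at least 5 at 21 of the 48, including 11 of 16 in Pcdhb and 6 of 25 in Pcdhg. This spread was not counted over all 16033, so that it is not shown to be particular to the protocadherins. Without WT replicate 1, 42 of the 48 were lower, beside 7275 of all 16033 and 649 of the 1322 at 20% to 80%. By at least 5 points, 24 were lower (5.26% of all, and 22.5% of those at 20% to 80%). Without WT replicate 2, 29 were lower, beside 6785 of all 16033 and 591 of the 1322 at 20% to 80%. By at least 5 points, 14 were lower (5.21% of all, and 19.5% of those at 20% to 80%). In Pcdhb only 6 of 16 were then lower, so that the direction in Pcdhb rested on WT replicate 2. In Pcdhg 20 of 25 were still lower.

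**Figure D4:**
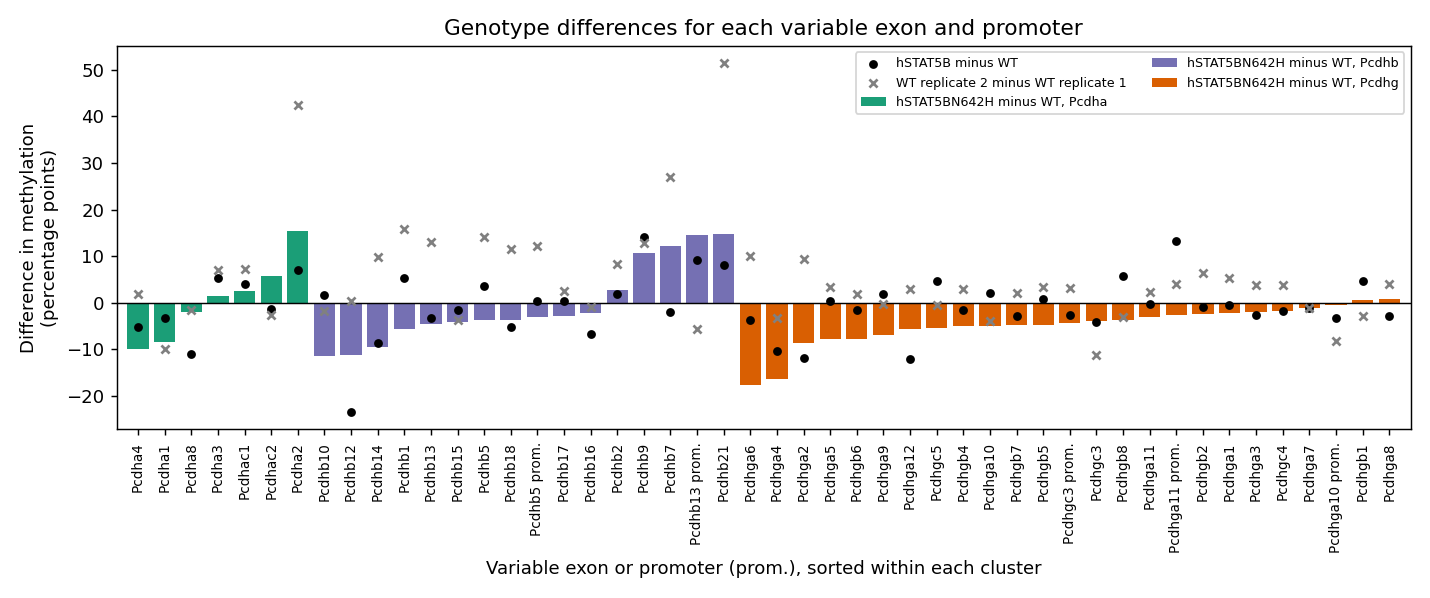
Difference in methylation (percentage points, vertical axis) for each of the 48 exons and promoters, sorted within each cluster: bars, hSTAT5BN642H minus WT; black points, hSTAT5B minus WT; grey crosses, WT replicate 2 minus WT replicate 1. In Pcdhg 23 of 25 bars are below 0, whereas in Pcdhb and Pcdha the bars point both ways and the WT replicates differ by up to about 51.4 percentage points.

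The most negative differences of hSTAT5BN642H from WT were in the A subfamily of Pcdhg. Pcdhga4 (chr18:37685210-37687817, 6 CpGs) had 73.1% and 69.9% in WT, 56.1% and 66.1% in hSTAT5B, and 54.3% and 56.2% in hSTAT5BN642H. The WT libraries were above all 4 transgenic libraries, and hSTAT5BN642H differed from WT by -16.2 percentage points. Pcdhga6 (5 CpGs) had 74.4% and 84.5% in WT, 74.4% and 77.4% in hSTAT5B, and 72.7% and 51.0% in hSTAT5BN642H, a difference of -17.6 that was only -6.73 without hSTAT5BN642H replicate 2. In Pcdhb the most negative were those of Pcdhb10 (5 CpGs), with 90.9% and 89.1% in WT, 95% and 88.5% in hSTAT5B, and 81.6% and 75.6% in hSTAT5BN642H, and Pcdhb12 (4 CpGs). Pcdhb12 had 69.0% and 69.3% in WT, 48.2% and 43.3% in hSTAT5B, and 53.9% and 61.8% in hSTAT5BN642H, so that it was lowest with the unmutated transgene. In Pcdha the most negative were those of Pcdha4 (-9.87) and Pcdha1 (-8.36), and the difference of Pcdha4 was 0.0491 once 10 reads per CpG were required.

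Higher values in hSTAT5BN642H were fewer. The Pcdhb13 promoter (3 CpGs) had 65.1% and 59.5% in WT, 71.1% and 71.8% in hSTAT5B, and 78.1% and 75.3% in hSTAT5BN642H, so that WT was below the transgenic libraries. Pcdhac2 had 16.0% and 13.5% in WT and 22.9% and 18.1% in hSTAT5BN642H, a difference of +5.76. The differences of Pcdha2 (+15.4, 3 CpGs) and Pcdhb21 (+14.7, 3 CpGs, none with a unique read) rested on WT replicate 1, whose levels were 53.3% and 44.4% against 95.8% in WT replicate 2 at both. In Pcdhg the highest differences were +0.797 at Pcdhga8 and +0.563 at Pcdhgb1, and both were below 0 when only CpGs with at least 10 reads were used.

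The unmutated transgene gave no common direction. Of the 48 exons and promoters, 28 had a lower mean in hSTAT5B than in WT (47.6% of all). By at least 5 percentage points, 9 were lower (3.46% of all, and 17.9% of those at 20% to 80%). As many points higher were 8 (4.63% of all, and 20.7% of those at 20% to 80%). Pcdhb9 (4 CpGs) had 74.6% and 87.4% in WT and 91.3% and 98.9% in hSTAT5B, and Pcdhga2 (4 CpGs) had 63.1% and 72.6% in WT and 51.7% and 60.2% in hSTAT5B. The Pcdhga11 promoter (7 CpGs) had 24.6% and 28.7% in WT, 43.0% and 36.7% in hSTAT5B, and 20.1% and 28.1% in hSTAT5BN642H. Between the transgenic genotypes, 31 of the 48 had a lower mean in hSTAT5BN642H than in hSTAT5B (47.4% of all). By at least 5 points, 14 were lower (4.07% of all, and 19.1% of those at 20% to 80%) and 8 higher (4.66% of all, and 22.5% of those at 20% to 80%). Pcdhb5 (4 CpGs), with 55.2% and 61.5% in hSTAT5B and 49.9% and 52.1% in hSTAT5BN642H, was among the clearest. At 2 of the 48, the exons of Pcdhgb8 and Pcdhgc5, both hSTAT5B libraries were above and both hSTAT5BN642H libraries below the WT libraries, and 1.95% of all showed this pattern or its reverse.

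No exon or promoter of the clusters passed limma's test with Benjamini-Hochberg adjustment over all 16033 exons and promoters. The number called was 0 of 48 in hSTAT5BN642H against WT (0% of all), 0 of 48 in hSTAT5B against WT (0% of all), and 0 of 48 in hSTAT5BN642H against hSTAT5B (0% of all). The replicate block gave 0 as well. A quasi-binomial model called 1, 0 and 3 of the 48 in these comparisons, beside 119, 21 and 97 of all 16033. An exact test by Fisher, which pools the mice of a genotype, called 15, 5 and 13 of the 48. Over all 16033 it called 1093, 631 and 1023. At an unadjusted limma p under 0.05 there was 1 of the 48 in each comparison. Over all 16033 there were 893, 950 and 857, which is a larger share. For hSTAT5BN642H against WT, the 1 of the 48 was the Pcdhgc3 promoter. Its log2 ratio of methylated to unmethylated reads differed between these genotypes by -1.37 ± 0.525 (SE), with a limma adjusted p of 0.862. Next were Pcdhga6 (-1.30 ± 0.569) and Pcdhga4 (-1.12 ± 0.575). For hSTAT5B against WT it was Pcdhb12 (-1.21 ± 0.503, limma adjusted p = 0.84), and for hSTAT5BN642H against hSTAT5B it was Pcdhb10 (-1.52 ± 0.599, limma adjusted p = 0.889). The sensitivity of this test was low. In simulated data for hSTAT5BN642H against WT over 16033 exons and promoters, it recovered 63.5% of changes of 40 percentage points, 5.5% of changes of 20 points and 0% of changes of 10 points. Few changes of the size seen here could therefore be called by limma with 2 libraries per genotype. The quasi-binomial model recovered 87%, 53% and 16.5% of these changes, and it also called 69, 45 and 42 unchanged exons and promoters. The median difference in log2 ratio over the 48 was -0.315 in hSTAT5BN642H against WT, beside 0.00397 over all exons and promoters.

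Protocadherins outside the clusters differed from the clustered genes in level. All 11 of these genes, each at its own locus, were measured in 17 exons or promoters, with a median level of 7.3%, and 13 of the 17 were below 20%. Pcdh10 had 9.93% over 40 CpGs of its start-codon exon and Pcdh17 had 9.82% over 43. Other start-codon exons were high, with 97.9% at Pcdh1, 96.5% at Pcdh9, 92.7% at Pcdh11x and 81.3% at Pcdh12. Several of the 17 were promoters, whereas most of the clustered exons and promoters measured were exons. None of the 17 passed the limma threshold in any comparison, and their median difference of hSTAT5BN642H from WT was 0.338 percentage points. Of 20 genes for proteins that act on the clusters (CTCF, cohesin and its loader, DNA methyltransferases, TET enzymes and others), 17 were measured in 20 exons or promoters. Their median level was 2.13%, none passed the limma threshold, and the median difference was -0.0586. The Ctcf promoter had 1.89% over 23 CpGs and the Dnmt3a promoter 2.23% over 49, whereas the Uhrf1 promoter had 68.1%. At 3 CpGs of the promoter of Dnmt3b, the methyltransferase that marks protocadherin promoters, WT had 0% in both libraries and hSTAT5BN642H 5.0% and 6.67%, a difference that did not pass the limma threshold.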

How the data were processed

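RRBS was done on CD8+ T cells of 3 genotypes. The authors trimmed 50-base single reads with Trimmomatic, aligned them with BSMAP in RRBS mode to GRCm38 (mm10), and extracted methylation with custom Python scripts. Every CpG has in the deposited files 2 raw counts, methylated reads and total reads, plus a score in which the authors scaled methylated over total reads to 1000; the score only served as a check. Levels here are unweighted means of CpGs that reached 5 reads in each of the 6 libraries. Start-codon exons and promoters (1000 bases) of protein-coding genes came from GENCODE M21, with at least 3 CpGs each. Reads carry no molecular identifiers, so that they are not independent molecules.

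Levels were compared with exact permutation tests, 2-sided, over libraries. Exons and promoters were tested with limma 3.58.1 (R 4.3.3) on log2((methylated + 1)/(unmethylated + 1)), all 6 libraries in 1 model, with Benjamini-Hochberg adjustment at 0.05, after a test on simulated data. Replicates are different mice, and p-values measure the spread between these mice only. Other software was scipy 1.17.1, numpy 2.4.6, pandas 2.3.3, matplotlib 3.10.9 and Python 3.11.15.

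Named exons and promoters were, in each cluster, the 2 lowest and 2 highest exons and the 2 largest rises and falls in hSTAT5BN642H against WT, the C-type genes, other genes of the interval, and the 3 with the smallest p in each comparison. Pcdhgb4, Pcdhgb8 and the Pcdhga11 promoter were added after their values were seen. The interval, the lists and the rule were chosen with earlier results of these data known. Other settings tried were a minimum of 10 or 20 reads, pooled reads, CpGs with unique reads, means per gene, 500-base promoters, at least 5 CpGs, 10 percentage points, other models, and leaving out each library. The limma test on unique reads, clusters without C-type genes, counts without a WT library, and Pcdhg relative to other CpGs were added after seeing the data. Markers of B cells are not reported here.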

Additional observations from a re-analysis of the deposited data

Results flagged for a closer look

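At the exons of Pcdhgb8 and Pcdhgc5, the transgenic genotypes lay on opposite sides of WT. Pcdhgb8 (10 CpGs) had 76.8% and 73.7% in WT, 81.1% in both hSTAT5B libraries, and 71.8% and 71.4% in hSTAT5BN642H, a difference of -9.50 percentage points between hSTAT5BN642H and hSTAT5B. Pcdhgc5 (6 CpGs) had 77.7% and 77.2% in WT, 82.0% and 82.4% in hSTAT5B, and 72.7% and 71.4% in hSTAT5BN642H, a difference of -10.2 percentage points. The difference between the effects of the transgenes was not tested beyond limma, in which neither exon passed the threshold. Over the genome, 312 of 16033 exons and promoters showed such a pattern. Groups of 2 libraries are too small to look for single libraries that lie apart.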

How the results depend on the processing

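The lower level of Pcdhg variable exons in hSTAT5BN642H kept its direction under all alternatives, between -5.51 percentage points (20 reads per CpG) and -3.68 (without WT replicate 2). The order of Pcdhb above Pcdha and Pcdhg was kept as well. With 1 mean per gene, Pcdha minus Pcdhg was -2.48. Leaving out 1 library gave -24.2 to -22.7 for Pcdha minus Pcdhb, -8.65 to -7.16 for Pcdha minus Pcdhg, and 14.9 to 16.6 for Pcdhb minus Pcdhg, but 5 libraries cannot give an exact permutation p below 0.0625.

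Some differences changed sign. For hSTAT5B minus WT, all CpGs gave -0.168 with 10 reads, Pcdhb exons 2.26 with 20 reads and 0.416 with unique reads, Pcdhg exons 0.0767 with pooled reads, Pcdhg promoters -1.76 with 10 reads and -4.88 with 1 mean per gene, and Pcdha promoters -0.505 with 10 and with 20 reads and -0.673 with pooled reads. For hSTAT5BN642H minus hSTAT5B, Pcdha exons gave -3.07 with pooled reads and Pcdhb exons 1.31 with 1 mean per gene. For hSTAT5BN642H minus WT, Pcdha4 gave 0.0491 with 10 and with 20 reads, Pcdhac1 -0.285 with pooled reads, Pcdhga8 -1.21 with 10 reads, -1.47 with pooled reads and -0.79 with unique reads, and Pcdhgb1 -1.04, -8.91 and -1.57 with 10 reads, 20 reads and pooled reads. The causes were not tested.

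Leaving out 1 library also turned the sign of differences, including those of Pcdha1, Pcdha2, Pcdhb21 and Pcdhga2, which were not small. For hSTAT5B minus WT, all CpGs ranged from -0.841 to 1.19, Pcdha exons from -1.85 to 2.07, Pcdha promoters from -4.00 to 10.6, Pcdhb exons from -5.23 to 4.27, and Pcdhg promoters from -0.913 to 1.65. For hSTAT5BN642H minus hSTAT5B, Pcdha exons ranged from -0.863 to 3.06, Pcdha promoters from -10.8 to 3.87, and Pcdhb exons from -3.23 to 2.01. For hSTAT5BN642H minus WT, the ranges were -0.405 to 2.83 for Pcdha exons, -3.12 to 2.85 for Pcdha promoters, and -5.84 to 3.66 for Pcdhb exons. For single exons they were -19.6 to 2.89 at Pcdha1, -5.86 to 36.6 at Pcdha2, -5.67 to 1.77 at Pcdha8, -1.11 to 6.16 at Pcdhac1, -13.5 to 2.39 at Pcdhb1, -10.8 to 3.31 at Pcdhb5, -11.0 to 2.06 at Pcdhb13, -10.3 to 1.94 at Pcdhb15, -11.0 to 40.4 at Pcdhb21, -18.2 to 1.08 at Pcdhga2, -3.81 to 0.0717 at Pcdhga3, -3.13 to 0.713 at Pcdhga7, -1.87 to 3.47 at Pcdhga8, -4.90 to 6.02 at Pcdhgb1, -9.61 to 1.64 at Pcdhgc3 and -3.59 to 0.299 at Pcdhgc4.

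The number of exons and promoters at least 5 percentage points apart was 21 of the 48 in hSTAT5BN642H against WT. Of all 16033, 3.56% were lower and 5.3% higher by as much, and of those at 20% to 80%, 17.9% and 24.4%. The count was 13 with 20 reads per CpG and 9 at 10 percentage points. For hSTAT5B against WT it was 17 (of all, 3.46% lower and 4.63% higher, and at 20% to 80%, 17.9% and 20.7%). It was 6 with 20 reads, 7 at 10 percentage points, and 10 of 38 with at least 5 CpGs. For hSTAT5BN642H against hSTAT5B it was 22 (of all, 4.07% lower and 4.66% higher, and at 20% to 80%, 19.1% and 22.5%). It was 10 with 20 reads and 7 at 10 percentage points. Fewer exons remain with 20 reads or 5 CpGs. Under these other settings the share of all exons and promoters was not counted, so that the counts only show the dependence on the setting. Where limma called 0, the quasi-binomial model called 1 in hSTAT5BN642H against WT and 3 in hSTAT5BN642H against hSTAT5B, beside 119 and 97 of all 16033. Fisher's exact test on pooled reads, which ignores the spread between mice, called 15, 5 and 13, beside 1093, 631 and 1023 of all 16033. In the simulation of hSTAT5BN642H against WT over 16033 exons and promoters, with 200 changed by 10 percentage points, the quasi-binomial model called 42 unchanged ones and Fisher's exact test 987.

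Replicate numbers did not pair the mice, with correlations of same-numbered libraries of -0.00716 to 0.00503. With the replicate block, limma called 0 in each comparison, and the Pcdhg difference of -4.34 had an exact permutation p of 0.5, the lowest that 2 pairs allow. Depth, 2 mice per genotype and the few CpGs near MspI sites limit all differences between genotypes.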
